A study of Mus musculus with 34 samples.

Results

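Mature microRNAs were measured by small RNA sequencing in wild-type mouse CAD cells 4 days after serum was withdrawn and in wild-type CAD cells kept in serum. These 6 libraries, 3 in each group, are all the small RNA libraries among the 34 libraries of the series, and they were chosen by their labels alone. CAD is a mouse neuronal line, labelled here as neuroblastoma cells, that stops dividing and grows processes when serum is removed. Both groups carried no edited allele and were plated in 6-well plates in DMEM/F12 medium with 10% fetal bovine serum. For the 4-day group the medium was changed to one without serum 24 h after plating, and the serum group was collected at 0 days without serum. A single cell line was used, and the labels do not say that the replicates came from separate cultures, so a p-value here reflects only how far these libraries spread, which may be technical. The count tables list 1525 names with at least 1 read, 1523 of them mouse miRNAs. Of these names 882 had reads in all 6 libraries and 715 passed the filter on low counts, 713 of them mouse. The 810 mouse names that were not tested had few reads, since the tested names held 99.9% of all miRNA reads.

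A miRNA is cut from a hairpin in a longer transcript, first by Drosha in the nucleus and then by Dicer in the cytoplasm, which leaves a duplex of the 5′ arm (5p) and the 3′ arm (3p). One arm is usually loaded into an Argonaute protein and kept, and the other is degraded faster. Bases 2 to 8 of the loaded strand, the seed, pair with target mRNAs, so miRNAs with 1 seed share most of their target sites. Many hairpins lie in introns of protein-coding host genes, and some lie in clusters that are transcribed together. In neurons miRNAs such as miR-124, miR-9, miR-137 and miR-138 are known for roles in differentiation and in synapses, while the miR-17-92 cluster is known for promoting proliferation.

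The mature sequences on which the results turn are given first, from RefSeq on GRCm38.p6, with the seed in capitals. Of the 715 tested names 565 had a RefSeq entry that was used. Entries of a left-out chromosome, and names whose entries differ in seed, were not used. The first set holds abundant miRNAs that had more reads at 4 days, and the let-7 miRNA that led every library.
miR-210-3p: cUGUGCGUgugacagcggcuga
miR-182-5p: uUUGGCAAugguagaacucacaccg
miR-26a-5p: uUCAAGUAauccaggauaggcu
miR-26b-5p: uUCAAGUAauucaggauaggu
miR-152-3p: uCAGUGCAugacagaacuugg
miR-7b-5p: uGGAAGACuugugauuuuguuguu
miR-138-5p: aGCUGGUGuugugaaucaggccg
miR-137-3p: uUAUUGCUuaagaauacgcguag
miR-470-5p: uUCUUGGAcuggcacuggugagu
let-7c-5p: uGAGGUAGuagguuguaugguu
miR-26a-5p and miR-26b-5p share their seed. miR-210-3p lies at chr7:141221407-141221428 on the minus strand, miR-152-3p at chr11:96850439-96850459 on the plus strand and miR-182-5p at chr6:30165962-30165986 on the minus strand.

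The second set holds both arms of hairpins whose arms moved apart or unequally, and shows that the arms of 1 hairpin carry unrelated seeds.
miR-15b-5p: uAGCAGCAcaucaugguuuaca
miR-15b-3p: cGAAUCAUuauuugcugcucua
miR-21a-5p: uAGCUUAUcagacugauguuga
miR-21a-3p: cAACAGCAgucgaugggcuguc
miR-92a-3p: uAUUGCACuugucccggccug
miR-92a-1-5p: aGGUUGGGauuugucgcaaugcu
miR-96-5p: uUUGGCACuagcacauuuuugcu
miR-96-3p: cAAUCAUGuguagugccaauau
miR-218-5p: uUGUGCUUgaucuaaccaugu
miR-218-1-3p: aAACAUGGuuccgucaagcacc
miR-218-2-3p: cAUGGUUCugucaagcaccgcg
The miR-218-5p sequence is cut from both the miR-218-1 hairpin on chromosome 5 and the miR-218-2 hairpin on chromosome 11, while each 3p arm belongs to 1 of them.

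Reads assigned to mature miRNAs numbered 2106388, 2503131 and 2763553 in the 4-day libraries and 1729526, 1423978 and 1536679 in the serum libraries. Another 34.1 to 39.996% of reads in the 4-day libraries and 46.1 to 49.2% in the serum libraries were counted under no miRNA. Levels below are CPM, counts per 1000000 miRNA reads after trimmed-mean (TMM) scaling, whose factors were 0.900 to 0.919 for the 4-day libraries and 1.062 to 1.132 for the serum libraries. Serum replicate 2 stood apart from its group. The Pearson correlation of log2 CPM over names was 0.992 to 0.995 between 4-day libraries and 0.975 between serum replicates 1 and 3, but 0.953 and 0.895 between serum replicate 2 and these serum libraries. In a multidimensional scaling of the libraries serum replicate 2 lay at 1.10 on the first axis, against -0.48 to 0.37 for the others, and serum replicate 3 at -1.04 on the second, against -0.40 to 0.47. The counts of calls are therefore also given without serum replicate 2 and without the other libraries. Among markers of other cell types the defining names of blood, miR-223-3p and miR-451a, had at most 4.33 CPM in the 4-day libraries and at most 20.5 CPM in the serum libraries, with the highest value in serum replicate 2. Other blood miRNAs were above that level, with miR-142a-3p at 6.33 to 10.5 CPM at 4 days and 27.6 to 33.7 CPM in serum, and miR-150-5p at 30.1 to 50.5 CPM at 4 days and 50.3 to 58.3 CPM in serum. The mesenchymal miR-143-3p and the endothelial miR-126a-3p were abundant in both groups, and their part in the results was not tested. In polyA RNA of the same conditions the neuronal tubulin Tubb3 had 623 to 782 CPM at 4 days and 509 to 523 CPM in serum, whereas Th, which makes the catecholamine precursor L-DOPA, had at most 1.20 CPM at 4 days and 1.71 CPM in serum. The proliferation marker Mki67 had 0.73, 11.9 and 8.65 CPM at 4 days, against 515, 499 and 447 CPM in serum.

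At 4 days without serum miRNAs had changed in both directions, and the miRNAs that rose were on the whole more abundant than those that fell. Of the 715 names 256 passed an adjusted p of 0.05 in edgeR's quasi-likelihood test with Benjamini-Hochberg adjustment, which is 35.8% of those tested, with 140 higher (19.6%) and 116 lower (16.2%) at 4 days, so 54.7% of the calls were higher. All adjusted p-values below come from this test, and log2 fold changes are 4 days over serum with their standard errors. A change of at least 2-fold was seen for 64 of the higher and 64 of the lower names. The 3 libraries of one group did not overlap those of the other for 371 names (51.9%). The 140 higher names held 48.6, 49.7 and 49.9% of mouse miRNA reads in the 4-day libraries, against 34.6, 35.6 and 34.3% in the serum libraries. The 114 lower mouse names held 7.19, 6.69 and 6.495% at 4 days, against 13.97, 11.8 and 13.7% in serum. The remaining 459 mouse names held 43.5 to 44.2% at 4 days and 51.4 to 52.4% in serum.

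These counts depend on the libraries and on the scaling. Without serum replicate 2 the number of calls was 399 of 759 (52.6%), with 201 higher (26.5%) and 198 lower (26.1%). Leaving out 4-day replicates 1, 2 or 3 gave 168, 154 and 154 calls, and leaving out serum replicates 1 or 3 gave 168 and 197. Scaled by library totals alone, 88 names were higher and 193 lower (39.3% called, with 31.3% of calls higher), and the median over all names moved to -0.38 from -0.11 log2 units. Scaled by the reads of the 2 non-mouse names in the tables, a choice made after the values were seen, 246 names were higher and 19 lower (36.2% called, 33.6% higher and 2.59% lower, so 92.8% of calls were higher), with a median of 0.61. Small RNA counts give shares of a library, so a fall of some miRNAs and a rise of the others cannot be told apart, nor can fewer cells with a miRNA and less of it per cell.

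**Figure D1:**
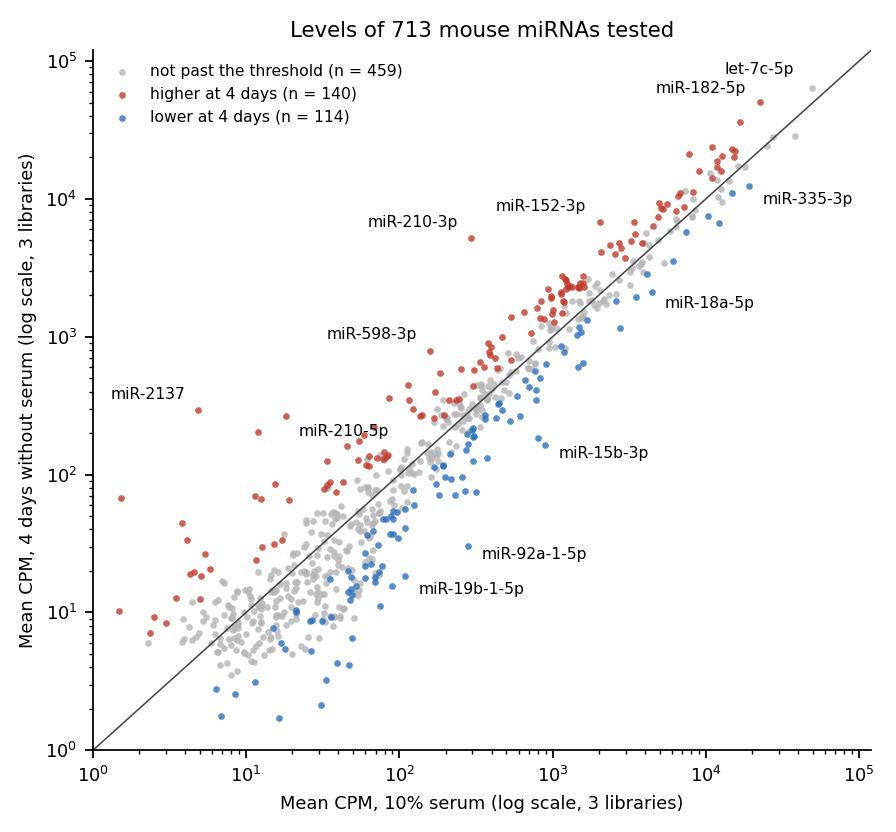
Mean level at 4 days and in serum (CPM, log axes) of the 713 mouse miRNAs tested, with 140 higher in red, 114 lower in blue, 459 not past the threshold in grey and a line at equal levels. miR-210-3p lies farthest from the diagonal among the abundant miRNAs, and let-7c-5p is the most abundant in both groups.

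The order of the most abundant miRNAs was largely kept. let-7c-5p, a member of the let-7 family known for holding back proliferation genes, ranked first in all 6 libraries. The top 10 names took 30.2, 28.7 and 29.2% of miRNA reads in the 4-day libraries and 26.2, 29.3 and 26.8% in the serum libraries, so the groups overlapped through serum replicate 2. A total of 25 names held 50% of the reads at 4 days and 27 in serum. The groups shared 4 of their top 5 names, 7 of the top 10, 13 of the top 20, 46 of the top 50 and 84 of the top 100. miR-26a-5p, miR-470-5p and miR-7b-5p were in the top 10 at 4 days alone, and miR-16-5p, miR-21a-5p and miR-335-3p in serum alone. Ranks are ranks of reads, and ligation of adapters is known to favour some sequences, so the order between miRNAs is not an order of molecules.

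Within this stable order some miRNAs moved far. miR-210-3p, known for its induction under low oxygen, ranked 55 at 4 days against 245 in serum. miR-7b-5p ranked 7 at 4 days and 25 in serum, and miR-26a-5p 10 and 34. miR-152-3p ranked 47 at 4 days and 88 in serum, and miR-652-3p, from an intron of Tmem164, 79 and 134. In the other direction miR-335-3p ranked 23 at 4 days and 6 in serum, miR-92a-3p of the miR-17-92 cluster 48 and 19, and its cluster partners miR-20a-5p 28 and 13 and miR-18a-5p 102 and 54.

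miR-210-3p had 4899, 5536 and 5192 CPM in the 4-day libraries and 273, 304 and 306 CPM in the serum libraries. All 4-day libraries were far above all serum libraries, a 17.7-fold difference (log2 fold change 4.15 ± 0.11, adjusted p = 2.89e-06). Its other arm, miR-210-5p, had 247, 269 and 286 CPM at 4 days and 17.4, 13.9 and 22.96 CPM in serum (3.88 ± 0.20, adjusted p = 5.65e-05). Both arms of this hairpin rose by a similar factor, and both calls held without any single library. Among called miRNAs of at least 50 CPM the largest fold was that of miR-2137, with 271, 413 and 203 CPM at 4 days and 6.64, 3.31 and 4.71 CPM in serum (5.87 ± 0.39, adjusted p = 0.000137). Its serum value rests on 13, 5 and 8 reads.

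Several abundant miRNAs more than doubled. miR-182-5p of the cluster of miR-183, miR-96 and miR-182, known from sensory neurons, had 52870, 49050 and 49130 CPM at 4 days and 22450, 23660 and 21300 CPM in serum, and ranked second at 4 days. The 3 libraries of each group lay close together and the groups were far apart (1.16 ± 0.07, adjusted p = 0.000107). miR-26a-5p had 20880, 22020 and 20370 CPM at 4 days and 7932, 7721 and 7585 CPM in serum (1.45 ± 0.07, adjusted p = 5.65e-05). miR-143-3p, best known from smooth muscle and mesenchyme, had 36090, 35220 and 36560 CPM at 4 days and 14150, 20350 and 15420 CPM in serum (1.11 ± 0.14, adjusted p = 0.00146). Serum replicate 2 was the serum library nearest to the 4-day libraries for miR-143-3p, and without it the log2 fold change was 1.25. miR-152-3p, of the family of miR-148 and miR-152, had 7232, 6934 and 6120 CPM at 4 days and 1962, 2051 and 2062 CPM in serum (1.74 ± 0.10, adjusted p = 7.02e-05). miR-7b-5p, which is abundant in neuroendocrine cells, had 24820, 22370 and 24570 CPM at 4 days and 8904, 14250 and 9609 CPM in serum (1.13 ± 0.18, adjusted p = 0.00427; 1.34 without serum replicate 2). Its near-identical relative miR-7a-5p, which has the same seed, had 34530, 24720 and 26680 CPM at 4 days and 32230, 46190 and 35510 CPM in serum (-0.41, adjusted p = 0.116). The groups overlapped for miR-7a-5p, and how reads that fit both names were counted is not given in the sources used here, so the split between the names is uncertain.

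The neuronal miR-138-5p and miR-137-3p, on which the rest of the series turns, rose less. miR-138-5p had 11370, 11220 and 10770 CPM at 4 days and 7912, 4932 and 7402 CPM in serum (0.72 ± 0.18, adjusted p = 0.0206). All 4-day libraries were above all serum libraries, and serum replicate 2 was the lowest. Its call was lost without 4-day replicates 1, 2 or 3 (0.69, 0.74 and 0.80), and with library totals alone (0.44, adjusted p = 0.107 by edgeR), and without serum replicate 2 the log2 fold change was 0.51. miR-137-3p had 8892, 8323 and 8481 CPM at 4 days and 5365, 4139 and 5779 CPM in serum (0.75 ± 0.13, adjusted p = 0.0056), again with serum replicate 2 lowest (0.59 without it). The lesser arms miR-138-1-3p (0.39, adjusted p = 0.117) and miR-138-2-3p (1.05, adjusted p = 0.0921) did not pass. miR-137-5p passed (0.62, adjusted p = 0.0454), but its call was lost without any library but serum replicate 2 and with library totals alone. miR-598-3p, known from neurons, rose more than miR-138-5p or miR-137-3p, with 782, 745 and 856 CPM at 4 days and 167, 146 and 164 CPM in serum (2.32 ± 0.12, adjusted p = 5.65e-05). miR-344-3p (1.14), miR-488-3p (1.02) and miR-708-5p (1.00) rose as well. The neuronal miR-149-3p (-2.88) and miR-218-2-3p (-1.69) fell. miR-124-3p did not pass, with 255 to 265 CPM at 4 days and 139 to 241 CPM in serum (0.37, adjusted p = 0.206). The groups overlapped for miR-9-5p, with 1231 to 1691 CPM at 4 days and 1480 to 1653 CPM in serum. Over the 52 tested arms of a list of neuronal miRNAs 16 rose, 9 fell and 27 did not pass, with a median of 0.37 against -0.11 over all names, of which 19.6% were higher and 16.2% lower. The balance of these arms turned with the scaling, with 12 higher and 13 lower with library totals alone and 23 higher and 2 lower, of 51 tested, under scaling by the 2 non-mouse names. Leaving out serum replicate 2 gave 23 higher and 12 lower, and without one of the other libraries 10 to 14 higher and 4 to 6 lower.

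**Figure D2:**
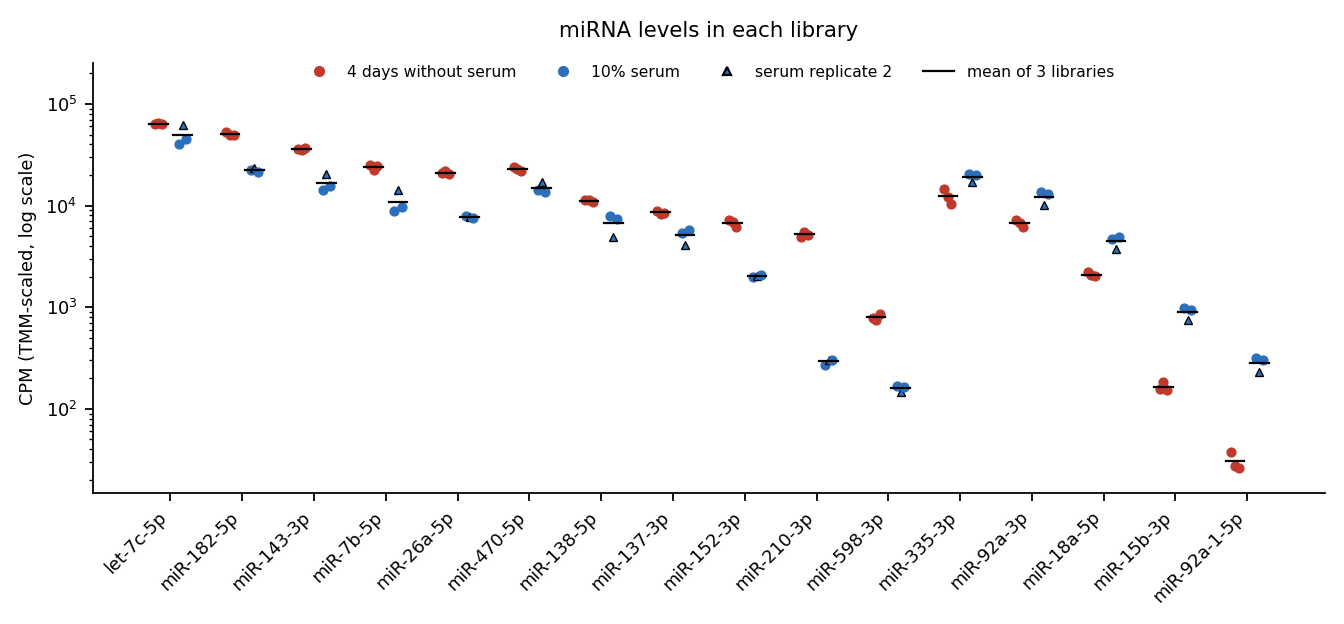
Level in each library (CPM, log axis) of miRNAs described in the text, with 4-day libraries left of serum libraries, serum replicate 2 as a triangle and the mean of each group as a line. miR-210-3p, miR-182-5p, miR-26a-5p and miR-152-3p separate the groups with little spread, while serum replicate 2 lies apart from serum replicates 1 and 3 for miR-7b-5p and miR-138-5p.

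Several of the largest falls among called miRNAs of at least 50 CPM were of lesser arms. miR-92a-1-5p, the lesser arm of the miR-92a-1 hairpin, had 37.5, 27.6 and 26.4 CPM at 4 days and 318, 230 and 300 CPM in serum (-3.22 ± 0.21, adjusted p = 0.000119). miR-15b-3p had 157, 183 and 152.4 CPM at 4 days and 984, 749 and 938 CPM in serum (-2.44 ± 0.15, adjusted p = 0.000107). miR-16-1-3p had 189, 169 and 193 CPM at 4 days and 811, 835 and 747 CPM in serum (-2.12 ± 0.11, adjusted p = 5.65e-05). For each of these the groups were well separated, and each call held without any single library. The abundant miRNAs of the same hairpins fell less or did not pass. miR-92a-3p had 7270, 6731 and 6136 CPM at 4 days and 13590, 10050 and 12980 CPM in serum (-0.86 ± 0.14, adjusted p = 0.00391). Scaled by the 2 non-mouse names, miR-92a-3p no longer passed (-0.16). miR-16-5p, whose levels overlapped, stood at 0.08 (adjusted p = 0.431).

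The miR-17-92 cluster and its paralogs were mostly lower at 4 days under TMM scaling. Of their 22 tested arms 15 were lower, beside 16.2% of all names, and 7 did not pass. Their median of -0.65 became 0.08 when libraries were scaled by the 2 non-mouse names. That scaling left 2 arms lower and put 1 higher, and library totals alone gave 20 lower. The count was 18 lower without serum replicate 2, beside 26.1% of all names, and without one of the other libraries 12 or 13. miR-18a-5p had 2217, 2063 and 2011 CPM at 4 days and 4639, 3756 and 4906 CPM in serum (-1.08 ± 0.12, adjusted p = 0.00109). It was lower in every 4-day library, as were miR-17-5p (-0.46), miR-20a-5p (-0.43) and miR-19a-3p (-0.86). miR-17-5p and miR-20a-5p turned to 0.28 and 0.31, and the falls of miR-18a-5p and miR-19a-3p no longer passed, when scaled by the 2 non-mouse names. Of the 9 tested arms placed by RefSeq in the miR-17-92 cluster itself, on the plus strand of chromosome 14, 8 were lower and 1 did not pass, with 2 lower and a median of -0.10 under scaling by the 2 non-mouse names. Together those 9 arms held 2.14, 2.11 and 2.13% of reads at 4 days and 3.79, 3.71 and 3.96% in serum. The paralogous cluster of miR-106b, miR-93 and miR-25 in an intron of Mcm7, a replication helicase gene, differed by arm. Its abundant arms miR-93-5p (-0.07), miR-25-3p (-0.10) and miR-106b-5p (-0.22) did not pass, while miR-93-3p (-0.93) and miR-25-5p (-1.02) were lower, though not under scaling by the 2 non-mouse names. miR-106b-3p (-0.50) was lower too, but not without 4-day replicates 1, 2 or 3 (-0.49, -0.50 and -0.44) and not under scaling by the 2 non-mouse names, which put it at 0.25.

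A second large cluster stood on the X chromosome. RefSeq places 19 hairpins in a row on its minus strand, between gaps of at most 10000 bases, and their leading miRNA is miR-470-5p; this cluster was singled out after its values were seen. Of its 34 tested arms 20 were higher, beside 19.6% of all names, and 14 did not pass. Their median was 0.38 against -0.11 over all names. The arms together held 15.3, 15.1 and 15.01% of miRNA reads at 4 days and 13.5, 13.4 and 13.3% in serum. The gap between the groups was several times the spread within either. The count of higher arms was 10, 9 and 10 without 4-day replicates 1, 2 and 3, and 10 and 11 without serum replicates 1 and 3. With library totals alone it was 8, beside 12.3% of all names. Leaving out serum replicate 2 gave 21 higher and 4 lower, beside 26.5% and 26.1% of all names. miR-470-5p had 23940, 22970 and 22020 CPM at 4 days and 14120, 17010 and 13600 CPM in serum (0.62 ± 0.10, adjusted p = 0.00448). miR-871-3p had 18030, 17330 and 16130 CPM at 4 days and 12540, 10800 and 12130 CPM in serum (0.54 ± 0.09, adjusted p = 0.00448). For both miRNAs every 4-day library was above every serum library, though miR-871-3p did not pass with library totals alone. miR-741-3p (0.67) also rose, whereas miR-880-3p (-0.04) and miR-471-5p (0.06) did not pass, so the arms of this cluster did not move as 1 block. Reads of miR-465a, miR-465b and miR-465c, near-identical members of the cluster, cannot be split with certainty.

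Other families showed several patterns, set here against 19.6% of all names higher and 16.2% lower. Of 5 tested arms of miR-26, 3 were higher, and likewise 3 of 5 of miR-103 and miR-107, a family known from insulin signalling; each count was 2 or 3 without any single library. Of 10 arms of miR-181, a family with roles in lymphocytes and neurons, 4 were higher and 3 lower. Without any single library the higher count stayed at 4, and the lower count was 1 without 4-day replicates 1 or 3, 2 without 4-day replicate 2 or serum replicates 1 or 3, and 4 without serum replicate 2. miR-181a-5p had 6658, 6877 and 7002 CPM at 4 days and 3341, 3497 and 3420 CPM in serum (1.00 ± 0.08, adjusted p = 0.000231). Of 14 arms of the family of miR-10, miR-99, miR-100 and miR-125 5 were higher and 1 lower, with miR-10a-5p at 0.91 and miR-100-5p at 1.10; 3 or 4 were higher without any one library but serum replicate 2, and 6 without that. The miR-29 family, which targets collagens, had 3 of 7 arms higher, but none without any one of the 4-day libraries or serum replicate 1. Of 14 arms of the miR-15 and miR-16 family, which targets cell-cycle genes, 3 were higher and 5 lower, with 1 to 3 higher and 3 lower without any one library but serum replicate 2, and 5 higher and 6 lower without that. In the miR-130 and miR-301 family 1 of 8 arms was higher and 5 lower, with a median of -0.81 that was -0.12 under scaling by the 2 non-mouse names. The lower count was 3 without any one library but serum replicate 2 and 6 without that. miR-301a-5p had 25.9, 17.1 and 21.7 CPM at 4 days and 85.3, 83.3 and 63.6 CPM in serum (-1.84 ± 0.27, adjusted p = 0.00271), a call lost under scaling by the 2 non-mouse names (-1.09). The activity-linked miR-212 and miR-132 pair had 2 of 4 arms lower, with miR-212-3p at -1.20 (-0.50 and not past under scaling by the 2 non-mouse names); 4 were lower without serum replicate 2 and 1 without any other library. In the miR-34 and miR-449 family, known as targets of p53, 0 of 6 passed in edgeR, 0 at an unadjusted p under 0.05 and 0 in DESeq2, with 1 lower in edgeR without serum replicate 2. Among arms of the cluster of miR-183, miR-96 and miR-182, 3 of 6 were higher and 1 lower, and the lower call was lost without any library but serum replicate 2. The 71 tested arms of the rodent Sfmbt2 cluster, which lie in an intron of that gene, had 1 higher and 17 lower, with a median of -0.22. The calls reversed with the scaling, to 16 higher and 0 lower (median 0.47) when scaled by the 2 non-mouse names, against 0 higher and 31 lower with library totals alone. Its number of lower arms was 32 without serum replicate 2 and 3 to 7 without one of the other libraries. Scaling moved the counts of several other families. With library totals alone the higher and lower arms numbered 4 and 4 in the miR-181 family, 3 and 3 in the family of miR-10, 1 and 6 in that of miR-15 and miR-16, and 0 and 6 in that of miR-130. Scaled by the 2 non-mouse names they numbered 4 and 0, 8 and 0, 6 and 3, and 2 and 0 in the same families. The miR-29 family had 0 arms higher with library totals alone and 4 when scaled by the 2 non-mouse names.

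The count of let-7 calls depended on the library left out. Its 20 tested arms had 4 higher, 1 lower and 15 not past the threshold, with a median of 0.43, a share of higher arms near the 19.6% of all names. Without serum replicate 2 there were 13 higher and 1 lower, with a median of 0.60, and without 4-day replicates 2 or 3 or serum replicates 1 or 3 there were 1, 1, 1 and 2 higher. Library totals alone gave 1 higher and 1 lower, and scaling by the 2 non-mouse names 15 higher and 0 lower. let-7c-5p had 63450, 64620 and 64140 CPM at 4 days and 40100, 61810 and 44910 CPM in serum (0.39 ± 0.16, adjusted p = 0.0947). Serum replicate 2 was close to the 4-day libraries and the other serum libraries were far below them. let-7i-5p had 3718, 5180 and 5087 CPM at 4 days and 1999, 2999 and 2156 CPM in serum (0.97 ± 0.20, adjusted p = 0.0104). The let-7 names differ by few bases, and how reads were divided between them is not given in the sources used here.

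Among miRNAs known from other cell types, 10 of 25 tested arms were higher and 3 lower, with a median of -0.12, beside 19.6% higher and 16.2% lower over all names. With library totals alone 7 were higher and 6 lower, and under scaling by the 2 non-mouse names 11 and 1 of 24. These include the mesenchymal miR-143-3p described above, the endothelial miR-126a-3p with 2332, 2204 and 2086 CPM at 4 days and 1041, 750 and 996 CPM in serum (1.25 ± 0.15, adjusted p = 0.00111), and the muscle miRNA miR-1a-3p at 0.88. The blood miRNA miR-142a-3p fell, to 6.33, 10.5 and 9.06 CPM at 4 days against 27.6, 33.7 and 33.0 CPM in serum (-1.85 ± 0.31, adjusted p = 0.0046). These miRNAs were low next to miR-143-3p, and what share of any of them came from CAD cells was not tested. Counts of higher arms were 11 without serum replicate 2, beside 26.5% of all names, and 5 to 9 without another single library.

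Arm ratios, the 5p reads over the 3p reads of 1 hairpin within a library, need no scaling between libraries. Of 546 hairpins with reads on both arms 219 had a mean of at least 10 counts on each, and 59 of those (26.9%) passed in an edgeR test of the arm-by-group interaction, 33 toward 5p (15.1%) and 26 toward 3p (11.9%) at 4 days. Most called shifts, 48 of 59 (81.4%), were toward the arm more abundant over all 6 libraries, and 11 were toward the lesser arm. The 4-day libraries enter that mean, so the choice of the more abundant arm is not independent of the shift. The more abundant arm differed between the groups in 5 hairpins, 1 of them called. Over all 219 hairpins 148 (67.6%) shifted toward the more abundant arm. The median SD of the log2 ratio between replicates was 0.163 at 4 days and 0.359 in serum. Without serum replicate 2 there were 111 calls (50.7%), 79 of them toward the more abundant arm. Without 4-day replicates 1, 2 or 3 there were 27, 26 and 23 calls, and without serum replicates 1 or 3 there were 42 and 40. The share of calls toward the more abundant arm was 71.2% without serum replicate 2 and 80.8 to 88.9% without one of the others.

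Among hairpins with at least 20 CPM on each arm, the largest called shift toward 5p in edgeR was at miR-21a, a miRNA known from proliferating and injured cells. Its 5p arm had 1426, 1529 and 1541 reads per 3p read at 4 days and 183, 582 and 186 in serum, a change of 2.59 ± 0.45 on the log2 scale (adjusted p = 0.00717; 3.05 without serum replicate 2). miR-149 was close to it at 2.50 ± 0.59, and above it in limma, at 2.63 against 2.47 for miR-21a, but its call was lost without 4-day replicates 1 or 2. For miR-21a the 4-day libraries agreed closely and serum replicate 2 lay between them and the other serum libraries. miR-21a-5p itself had 16180, 19110 and 16080 CPM at 4 days and 17670, 17880 and 18090 CPM in serum, so the groups overlapped. The shift lay in miR-21a-3p, with 11.1, 12.3 and 10.2 CPM at 4 days and 96.6, 30.4 and 97.1 CPM in serum (-2.73 ± 0.48, adjusted p = 0.0056). At miR-15b the ratio was 19.5, 15.2 and 17.3 at 4 days and 4.36, 4.72 and 4.82 in serum (1.90 ± 0.14, adjusted p = 0.000369). At miR-96 it was 28.9, 30.0 and 29.3 at 4 days and 10.4, 8.26 and 7.50 in serum (1.77 ± 0.17, adjusted p = 0.000812). At its cluster partner miR-182 it was 987, 831 and 1044 at 4 days and 298, 333 and 288 in serum (1.63, adjusted p = 0.000525). In these 3 hairpins no serum library came near the 4-day libraries, serum replicate 2 included.

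Among the same hairpins shifts toward 3p were led by miR-301b, whose 3p arm is the more abundant. Its ratio was 0.0148, 0.0173 and 0.0163 at 4 days and 0.0548, 0.104 and 0.0696 in serum (-2.19 ± 0.26, adjusted p = 0.00171; -1.94 without serum replicate 2). Here too the lesser arm lost share. At miR-465d of the X-chromosome cluster the ratio was 2.84, 2.21 and 2.40 at 4 days and 12.6, 7.99 and 8.33 in serum (-1.94, adjusted p = 0.00179), a shift against the more abundant 5p arm. Calls for miR-15b, miR-96, miR-182, miR-21a, miR-301b, miR-465d and miR-669c held without any single library. Those for miR-23a, at -1.64, and miR-27a, at -1.51, did not: the first was lost without 4-day replicates 1, 2 or 3 (-1.66, -1.59 and -1.68) and the second without 4-day replicates 2 or 3 (-1.35 and -1.50).

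In 211 hairpins both arms were also tested as single miRNAs. The more abundant arm was higher in 65 and lower in 30 of them, and the lesser arm higher in 31 and lower in 42. The median log2 fold change was 0.09 for the more abundant arm and -0.19 for the lesser one. Both arms were higher in 23 hairpins, both lower in 15, and in 5 (miR-195a, miR-301b, miR-30d, miR-669c and miR-96) the arms passed in opposite directions. At miR-195a the 5p arm had 1920, 1851 and 1703 CPM at 4 days and 819, 851 and 860 CPM in serum (1.11 ± 0.09, adjusted p = 0.000344). Its 3p arm had 7.39, 7.90 and 7.88 CPM at 4 days and 18.9, 11.2 and 14.7 CPM in serum (-0.95, adjusted p = 0.0476), and its call was lost without any library but serum replicate 2 (-0.76 to -0.94). The lesser arms of miR-30d, miR-669c and miR-96 also lost their calls without any library but serum replicate 2 (-1.28 to -1.53, -0.68 to -0.81 and -0.56 to -0.77), as did miR-669c-5p (0.65 to 0.87). miR-301b-3p lost its call without 4-day replicates 1 or 2 (0.67 and 0.76), and miR-30d-5p without 4-day replicate 3 (0.70). With library totals alone miR-301b-3p, miR-30d-5p and miR-669c-5p did not pass. Scaled by the 2 non-mouse names, the lower arms of these 5 hairpins did not pass. The more abundant arm changed identity between the groups in 5 hairpins: miR-136, miR-151, miR-1b, miR-344f and miR-673. The ratios of the first 4 lay between 0.514 and 1.89 in every library. That of miR-673 lay between 0.607 and 1.60 in 5 libraries and far above 1 in serum replicate 3, which had 0 reads of its 3p arm. Of these miR-344f alone passed (1.06, adjusted p = 0.0478), and not without 4-day replicates 1, 2 or 3 or serum replicate 3 (1.10, 1.12, 0.96 and 0.83), nor in limma (adjusted p = 0.0546) or with a minimum of 5 counts on each arm (adjusted p = 0.0544 by edgeR).

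**Figure D3:**
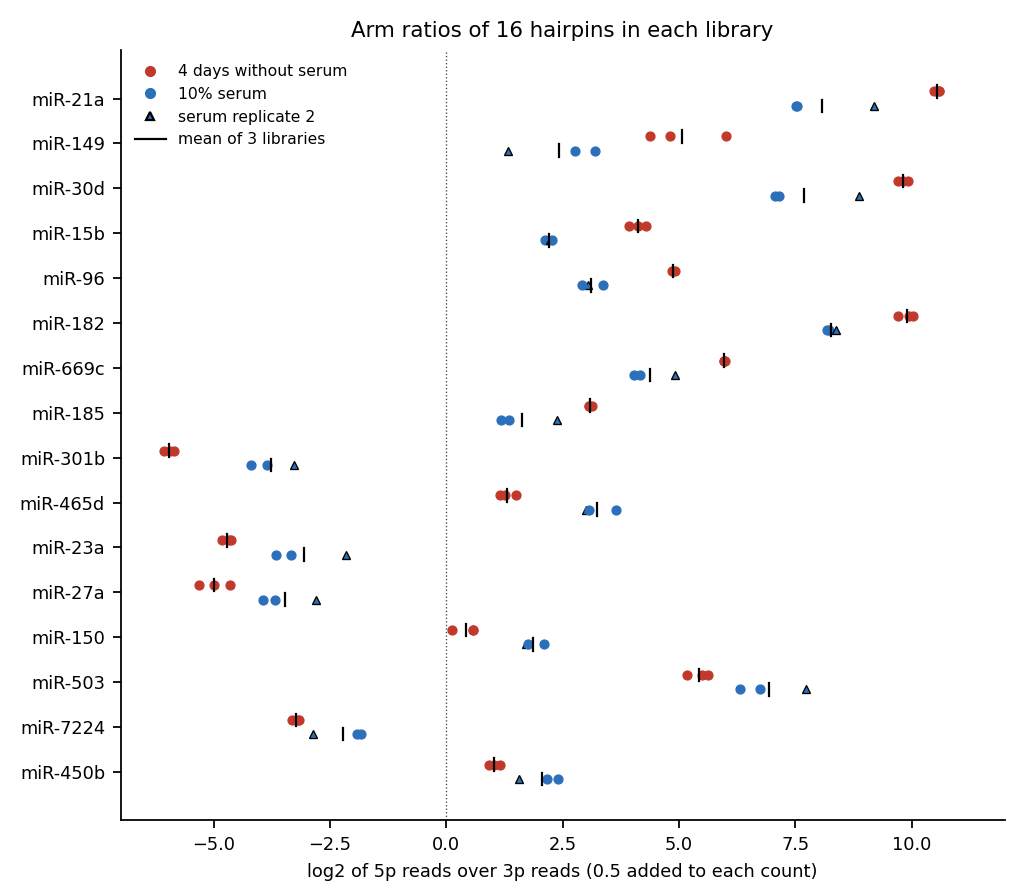
Log2 of the 5p over the 3p reads (horizontal axis, 0.5 added to each count) in each library for the 16 hairpins with the largest called shifts, with 4-day libraries above serum libraries, serum replicate 2 as a triangle and group means as bars. The miR-15b, miR-96 and miR-182 ratios are higher in every 4-day library than in any serum library, and the miR-301b ratio is lower.

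Where 1 mature sequence comes from more than 1 hairpin, the lesser arms tell the hairpins apart. miR-218-5p, known from motor neurons, had 25030, 24360 and 23390 CPM at 4 days and 24590, 24520 and 25650 CPM in serum (-0.04, adjusted p = 0.653), with overlapping groups. The lesser arm miR-218-1-3p had 113, 185 and 181 CPM at 4 days and 59.3, 30.4 and 45.9 CPM in serum (1.82 ± 0.30, adjusted p = 0.0046). The lesser arm miR-218-2-3p had 77.0, 74.6 and 63.4 CPM at 4 days and 283, 168 and 240 CPM in serum (-1.69 ± 0.21, adjusted p = 0.00147). The lesser arms of these hairpins changed in opposite directions, and no change passed for the shared arm. Under scaling by the 2 non-mouse names miR-218-2-3p no longer passed (-1.001). miR-181a showed the same kind of split. Its lesser arm miR-181a-2-3p had 363, 327 and 354 CPM at 4 days and 119, 106.5 and 121 CPM in serum (1.59 ± 0.11, adjusted p = 0.000159), and miR-181a-1-3p had 153, 114 and 131.5 CPM at 4 days and 407, 390 and 320 CPM in serum (-1.49 ± 0.16, adjusted p = 0.00074). Under scaling by the 2 non-mouse names miR-181a-1-3p no longer passed (-0.74). For miR-16 both lesser arms fell, miR-16-1-3p by 2.12 and miR-16-2-3p by 2.09 on the log2 scale.

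Counts were also summed over the names with a used RefSeq entry that share a seed, so the sums leave out all other names. Those left out include names that have a sequence but lie on the left-out chromosome. Of 470 seed families tested 162 passed (34.5%), 93 higher (19.8%) and 69 lower (14.7%), and without serum replicate 2 it was 263 (52.3%). Without one of the other libraries the count was 103 to 162. The balance moved with the scaling, to 58 higher (12.3%) and 117 lower (24.9%) with library totals alone (37.2% called) and 84 higher (17.9%) and 83 lower (17.7%) with RLE scaling (35.5% called), the median-ratio size factors of DESeq2. Among the 63 families with at least 2 tested names 19 were higher and 10 lower. The UCAAGUA family of miR-26a-5p and miR-26b-5p summed to 32410, 33980 and 32460 CPM at 4 days and 13630, 14760 and 14660 CPM in serum (1.20 ± 0.08, adjusted p = 0.000128). The groups did not overlap and the spread within each was small. The CAGUGCA family of miR-152-3p, miR-148b-3p and miR-148a-3p rose (1.00, adjusted p = 0.000905), as did the GAUCUAG family of miR-344-3p and miR-344c-3p (1.06, adjusted p = 0.000709). The ACCCUGU family of miR-10a-5p and miR-10b-5p (0.89, adjusted p = 0.00155) rose as well. The CUCUGAC family of miR-301a-5p and miR-301b-5p fell, at 54.6, 46.1 and 49.5 CPM at 4 days and 149 to 167 CPM in serum (-1.64 ± 0.18, adjusted p = 0.000709). Lower sums were also found for the GUUUUGC family of miR-19b-1-5p and miR-19b-2-5p (-1.47) and the AAGCUCG family of miR-99b-3p and miR-99a-3p (-1.05).

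PolyA RNA-seq of wild-type cells 4 days without serum and in serum, with 3 libraries in each group, gives the host genes. The labels of the 4-day polyA libraries conflict, wild type by title and mir-138 DKO in the genotype field, and they are used as wild type. Of 13283 genes tested 9417 passed (70.9%), 4805 higher (36.2%) and 4612 lower (34.7%), so a call of a host is the common case. Host values were available for 53 hairpins in 45 genes. For each hairpin the more abundant arm was used, or, where that arm is shared with another hairpin, the arm that is its own. This arm and the host both passed for 24 hairpins, with both higher in 14, both lower in 5, the miRNA higher and the host lower in 4 and the reverse in 1. Without serum replicate 2 both passed for 27 hairpins, and without one of the other small RNA libraries for 18 to 20. Across the 53 hairpins the changes had a Pearson correlation of 0.41 and a Spearman correlation of 0.59. Both are given as a description, since several hairpins share a host and a scaling. They include the hairpin in Igf2, at -0.26 for miR-483-3p beside 7.34 for the host, which had 0 CPM in every serum library.

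Copz2, a coat protein gene that hosts miR-152, had 14.1, 12.98 and 16.2 CPM at 4 days and 4.57, 3.50 and 5.12 CPM in serum (1.72 ± 0.21, adjusted p = 6.1e-06), beside 1.74 for miR-152-3p. Egfl7, the endothelial gene that hosts miR-126a, stood at 1.09 beside 1.25 for miR-126a-3p, and Astn1, a neuronal migration gene, at 2.10 beside 1.02 for miR-488-3p. These hosts and their miRNAs rose together. Smc4, a condensin gene that hosts miR-15b and miR-16-2, had 25.8, 39.7 and 34.3 CPM at 4 days and 274, 264 and 252 CPM in serum (-2.98 ± 0.13, adjusted p = 1.71e-10). The lesser arms miR-15b-3p (-2.44) and miR-16-2-3p (-2.09) fell as well. miR-15b-5p stood at -0.54 (adjusted p = 0.0156), a call lost without any library but serum replicate 2 (-0.43 to -0.61), and it turned to 0.18 when scaled by the 2 non-mouse names. Mcm7 had 28.6, 41.2 and 41.8 CPM at 4 days and 380, 388 and 408 CPM in serum (-3.40 ± 0.12, adjusted p = 4.81e-11), beside abundant arms that did not pass. For the miR-218 hairpins the hosts moved the same ways as the lesser arms. Slit2, an axon guidance gene that hosts miR-218-1, stood at 0.70, and Slit3, its relative that hosts miR-218-2, at -1.15. Over 35 lesser arms with host values 14 had both called, 12 of them in the same direction.

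Some pairs moved apart. Nfyc, a subunit of a CCAAT-binding factor and host of miR-30e, had 6.63, 7.13 and 9.83 CPM at 4 days and 27.3, 30.8 and 28.2 CPM in serum (-1.87 ± 0.17, adjusted p = 3.07e-07). miR-30e-5p was higher at 0.37 (adjusted p = 0.0128), but not without 4-day replicates 1 or 2 or serum replicates 1 or 3 (0.34, 0.40, 0.34 and 0.39) and not with library totals alone (0.098, adjusted p = 0.299 by edgeR). miR-26b-5p (0.61) rose beside a fall of its host Ctdsp1 (-0.57), and miR-107-3p (0.88) beside a fall of Pank1 (-0.73), which did not pass without polyA serum replicate 1 (-0.58). miR-140-3p (0.79) rose beside Wwp2 (-0.27), which did not pass without 4-day polyA replicate 3 (-0.24). Mest, the imprinted host of miR-335, fell (-0.82), while miR-335-5p stood at 0.03 (adjusted p = 0.801) and miR-335-3p at -0.63 (adjusted p = 0.0149). The call of miR-335-3p was lost without 4-day replicates 2 or 3 or serum replicates 1 or 3 (-0.58, -0.46, -0.59 and -0.57), and it reversed to 0.10 when scaled by the 2 non-mouse names.

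**Figure D4:**
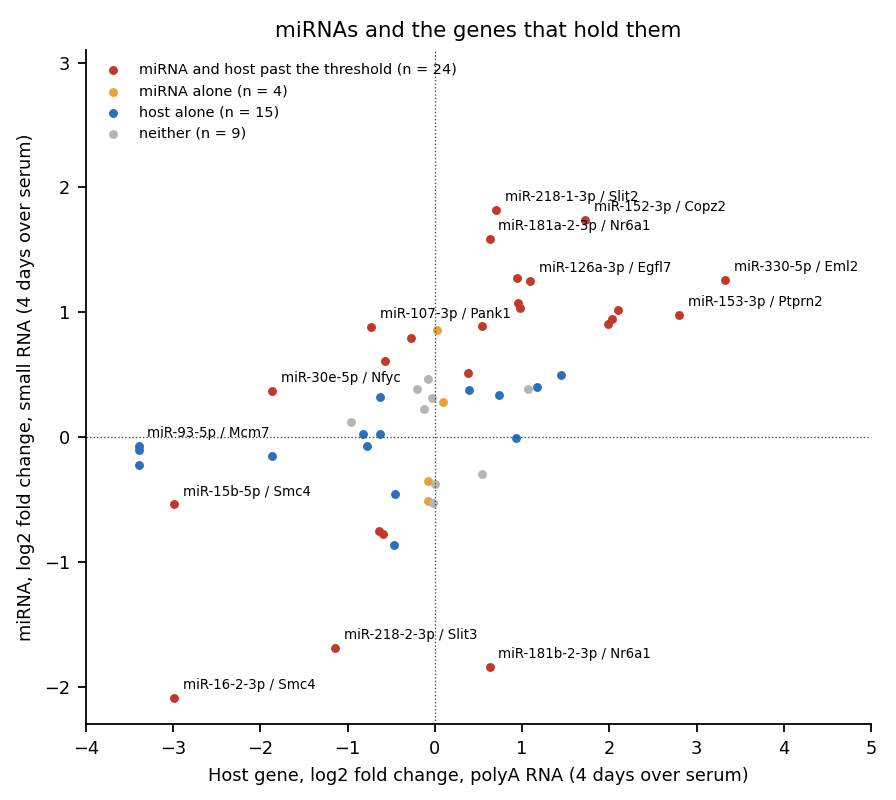
Log2 fold change, 4 days over serum, of the miRNA arm used for each hairpin (vertical) and of its host gene in polyA RNA (horizontal), coloured by whether both passed (24), the miRNA alone (4), the host alone (15) or neither (9); a hairpin in Igf2, which had no reads in serum, is left out. Hairpins in Copz2 and Egfl7 lie in the upper right, those in Smc4 in the lower left, and the Mcm7 hairpins near 0 on the vertical axis.

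Serum replicate 2 differed from the other serum libraries in 2 ways. First, the abundant miRNAs of this library deviated from the other serum libraries. Over 415 miRNAs of at least 50 CPM its median absolute deviation from the mean of the others was 0.41 log2 units, against 0.24 and 0.17 for serum replicates 1 and 3 and 0.09 to 0.13 for the 4-day libraries. It was at least 2-fold above the others for 9 of these miRNAs and at least 2-fold below for 24, while each other library passed that size for 0 or 1. miR-379-5p had 439 CPM in serum replicate 2, against 175 and 162 CPM in serum replicates 1 and 3 and 228 to 259 CPM at 4 days. miR-33-5p had 171 CPM in serum replicate 2, against 432 and 416 CPM in the other serum libraries and 394 to 508 CPM at 4 days. For 335 miRNAs of at least 50 CPM the 4-day libraries did not overlap serum replicates 1 and 3. Among them serum replicate 2 lay between the means for 149, beyond the 4-day mean for 58 and on the far side for 128. Its median position was 0.22, with 0 at serum replicates 1 and 3 and 1 at the 4-day mean. What set this library apart was not tested.

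Second, serum replicates 2 and 3 lay at opposite ends of the serum group for a set of miRNAs with few reads. A total of 70 names, chosen after their values were seen, had at least 20 counts in serum replicate 2 and at most 2 in serum replicate 3. Together they had 248, 404 and 495 reads per 1000000 at 4 days, and 538, 3902 and 9.76 reads per 1000000 in serum replicates 1, 2 and 3. The rule that chose these names sets a high value in serum replicate 2 and a low value in serum replicate 3. The gap between them therefore does not tell which of these libraries is the unusual one. Of these names 58 had no read in serum replicate 3, where a count of 0 allows up to 1.95 reads per 1000000 (3 counts, counting error only). They include miR-206-3p of muscle, with 19, 39 and 38 reads at 4 days and 31, 205 and 0 in serum, and miR-122-5p of liver, with 10, 10 and 16 reads at 4 days and 17, 49 and 2 in serum. Where these reads came from was not tested. Of the 70 names 32 passed the filter on low counts, and no test of them is given, since the choice of the names sets a wide spread within the serum group. Without these names the count of calls was 269 of 683 (39.4%), with 250 in common with the full table.

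Leaving serum replicate 2 out kept 253 of the 256 calls, added 146 and lost 3, and the 253 shared calls had the same direction in both. The most abundant added calls were let-7c-5p (0.56 without this library, 0.39 with it), miR-743b-3p (0.76 and 0.54), miR-30a-5p (0.38 and 0.22), miR-106b-5p (-0.25 and -0.22), miR-99b-5p (-0.60 and -0.43) and let-7a-5p (0.86 and 0.62). The calls lost were miR-29a-3p (0.25 and 0.39), miR-804 (-0.82 and -1.01) and miR-326-5p (-1.25 and -1.18), and each of these was also lost without any other single library. miR-379-5p stood at 0.50 without this library and at -0.09 with it, and miR-129-5p at 0.50 and -0.05. The imprinted Dlk1-Dio3 cluster, to which miR-379 belongs, had 3 of 53 tested arms lower with all libraries, beside 16.2% of all names. Without serum replicate 2 it had 10 lower and 1 higher, beside 26.1% lower and 26.5% higher over all names. Its median was then -0.26 against -0.84 with all libraries, and without serum replicate 3 there were 11 lower. Library totals alone gave 14 lower, and scaling by the 2 non-mouse names 0 lower and 1 higher. Of its detected arms 10 belong to the 70 names above. The median of 3 tested arms of the epithelial miR-200 family was 0.78 without serum replicate 2 and -0.93 with it, and 3 of its detected arms belong to the 70 names. For the abundant miRNAs named above with the smallest errors the values without and with serum replicate 2 were close. miR-210-3p stood at 4.14 and 4.15, miR-182-5p at 1.18 and 1.16 and miR-26a-5p at 1.42 and 1.45. Those errors include serum replicate 2, so the choice favours miRNAs for which that library lay near the other serum libraries.

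**Figure D5:**
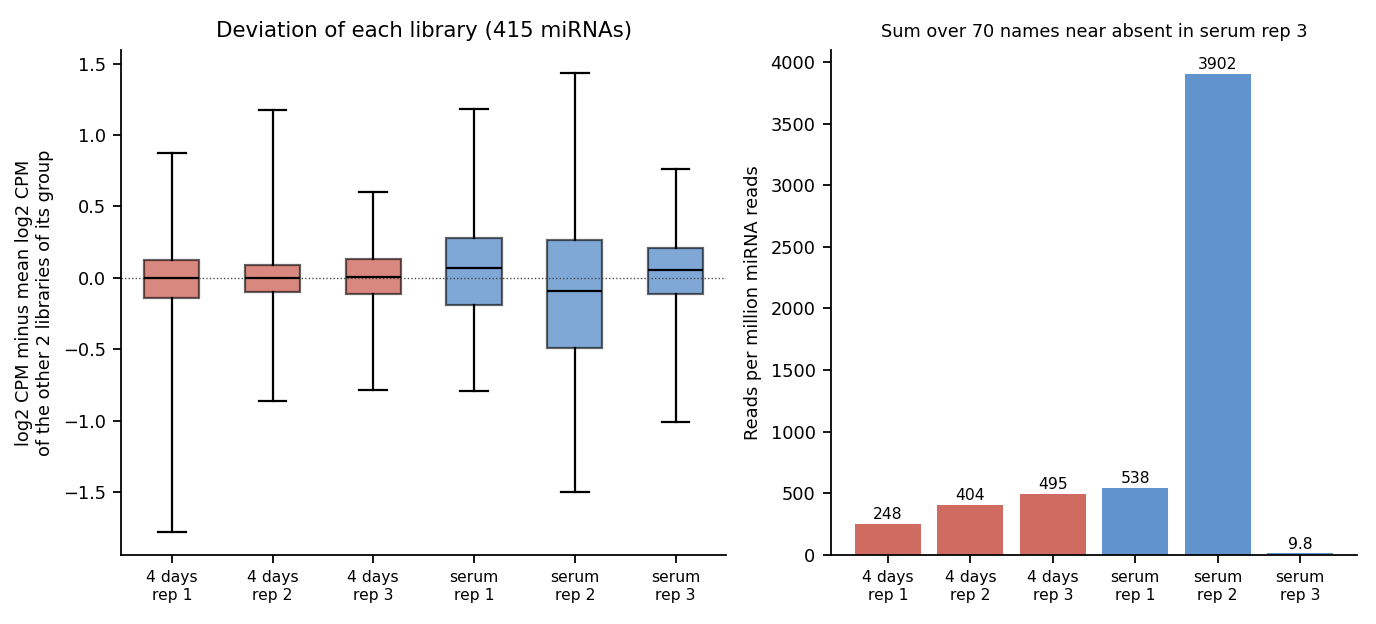
Left, log2 CPM of 415 miRNAs in each library minus the mean log2 CPM of the other 2 libraries of its group, as boxes of the quartiles with whiskers to the extremes, and right, reads per 1000000 summed over the 70 names near absent in serum replicate 3, one bar for each library. The box of serum replicate 2 is the widest, and its bar reaches 3902, against 9.76 for serum replicate 3.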

How the data were processed

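Small RNA was sequenced from total RNA of 6 samples with a NEXTflex kit, per the labels' protocols; cutadapt and BWA are named in the submitters' processing notes, with build mm9 and without versions. The authors deposited raw read counts per mature miRNA name; how reads matching several names were divided is not given in the sources used here. A row counted under no miRNA, 34.1 to 49.2% of reads, was left out of library sizes and tests. Groups were taken from the labels. Names were filtered with filterByExpr (minimum count 10, total 15), scaled by TMM and tested with edgeR 4.0.16 in R 4.3.3 by its quasi-likelihood test, without a replicate block, at a Benjamini-Hochberg adjusted p of 0.05. Arm ratios were tested as an arm-by-group interaction with a term for each library, in hairpins with a mean of at least 10 counts on each arm; 0.5 was added for the printed ratios. Host genes came from deposited STAR gene counts of 6 polyA libraries, tested in the same way on 13283 genes; their 4-day genotype field conflicts with the title. Alternatives were other scalings, filters, DESeq2 1.42.0, limma 3.58.1, a replicate block and leaving out each library.

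miRNAs were named by a rule: the miR-137 and miR-138 arms, the 10 most abundant of each group, the 12 largest called changes each way above 50 CPM, the 10 largest differences in mean CPM, up to 4 members of each list, the 8 largest arm shifts each way, the 10 farthest in serum replicate 2, 6 calls gained and 6 lost without it, 6 seed families each way, and host pairs. Cluster, arm and host partners, the 70 names, the genomic clusters and the scaling by non-mouse names were chosen after values were seen. The members and lists were chosen with earlier results of these data known. In simulated data the test recovered 52.5% of 2-fold miRNA changes with 7.9% false calls (695 names). It recovered 48.9% of arm ratio changes of at least 2-fold with 4.3% false calls (210 hairpins).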

Additional observations from a re-analysis of the deposited data

Results flagged for a closer look

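Reads outside the mouse miRNA table were seen in every library. A Drosophila miR-14-5p and a Xenopus miR-427 name together had 1568, 2025 and 2116 reads per 1000000 miRNA reads in 4-day replicates 1, 2 and 3, and 3266, 5074 and 3426 reads per 1000000 in serum replicates 1, 2 and 3. The 4-day libraries were all below the serum libraries. The labels do not say how these reads arose, and both names were counted with the mouse names in the fits. Reads counted under no miRNA made up 34.1, 39.996 and 38.2% of reads in the 4-day libraries and 49.2, 46.1 and 46.9% in the serum libraries. They were left out of library sizes, and their part in the results was not tested.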

How the results depend on the processing

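Of 172 called miRNAs, arm ratios, seed families and host genes that were followed through the alternatives, 113 kept their call without any single library, and 88 kept it under every setting run. Leaving out one library gave 154 to 399 miRNA calls, 23 to 111 arm-ratio calls, 103 to 263 seed-family calls and 8836 to 9394 polyA calls. The number of calls depended on the libraries kept, and fewer samples enter each of these fits. With the replicate block the counts of the miRNAs, arm ratios and polyA genes were 196, 46 and 9192. The numbers do not pair the samples, since deviations of same-numbered libraries correlated at 0.087, 0.051 and -0.419. The top 10 names took 28.7 to 30.2% of reads over single 4-day libraries and 26.2 to 29.3% over single serum libraries. Changes of sign were as follows, and the cause was not tested. With library totals alone, miR-16-5p was -0.20, miR-30a-5p -0.051, miR-335-5p -0.25, miR-471-5p -0.22 and miR-879-5p -0.22. With the replicate block, miR-129-5p was 0.083, miR-200c-3p 0.40 and miR-379-5p 0.064. Over the fits that leave out 1 library each, the sign changed within these ranges: miR-129-5p -0.26 to 0.50, miR-148a-3p -1.16 to 0.95, miR-200a-5p -1.71 to 0.78, miR-200c-3p -0.39 to 1.32, miR-206-3p -2.36 to 0.77, miR-218-5p -0.079 to 0.041, miR-21a-5p -0.12 to 0.035, miR-25-3p -0.16 to 0.0067, miR-335-5p -0.043 to 0.12, miR-34b-5p -0.34 to 0.017, miR-379-5p -0.29 to 0.50, miR-429-3p -1.34 to 0.57, miR-449a-5p -0.96 to 0.40, miR-471-5p -0.15 to 0.20, miR-486a-5p -0.51 to 0.33, miR-879-5p -0.26 to 0.34 and miR-880-3p -0.18 to 0.085. Without the 70 names, miR-335-5p was -0.0083. Scaled by the 2 non-mouse names, which raises the fold changes, signs changed for let-7d-3p 0.023, miR-106b-3p 0.25, miR-106b-5p 0.50, miR-129-5p 0.81, miR-132-3p 0.47, miR-148a-3p 0.23, miR-148b-5p 0.38, miR-149-5p 0.19, miR-15b-5p 0.18, miR-17-5p 0.28, miR-182-3p 0.26, miR-19b-3p 0.37, miR-200c-3p 0.91, miR-20a-5p 0.31, miR-212-5p 0.043, miR-218-5p 0.69, miR-21a-5p 0.66, miR-221-3p 0.27, miR-25-3p 0.64, miR-26b-3p 0.094, miR-27a-3p 0.22, miR-30a-3p 0.42, miR-335-3p 0.10, miR-34b-5p 0.52, miR-34c-3p 0.58, miR-379-5p 0.79, miR-429-3p 0.021, miR-449a-5p 0.26, miR-450b-5p 0.034, miR-466a-3p 0.13, miR-466f 0.050, miR-466p-5p 0.072, miR-486a-5p 0.56, miR-7a-1-3p 0.16, miR-7a-5p 0.40, miR-880-3p 0.68, miR-93-5p 0.68 and miR-99b-5p 0.28. Seed families were not rescaled this way. The serum libraries, with 1423978 to 1729526 reads, set the floor for miRNAs low in serum.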
